A study of Oncorhynchus mykiss with 6 samples.

Results

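miR-210 is a microRNA conserved among vertebrates, and it was examined here in the livers of rainbow trout (Oncorhynchus mykiss) warmed to 24 °C and of rainbow trout kept at 18 °C. Its members were chosen by name, as every listed miRNA name that reads miR-210 once a final x, y or z is removed. There were 3 such names, miR-210-x, miR-210-y and miR-210-z, of 522 names of known miRNA families and 2730 names in all. All 3 passed the filter on low counts.

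The heat group held 3 liver libraries from fish whose water was warmed from 18 to 24 °C at 1 °C per 24 h, and the control group held 3 liver libraries from fish left at 18 °C. All fish were 150 days old per the labels, weighed about 200 g, had 7 days of acclimation in 500 L tanks before the warming, and carried no genetic change that the labels name. The labels speak of 12 female fish as the source of the livers, and do not tell how fish and tanks were divided over the libraries. The p-values therefore measure the spread between these libraries, which may be technical, and temperature and tank cannot be told apart. Heat stands below for 24 °C and control for 18 °C.

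In mammalian cells miR-210 is the microRNA most regularly raised in hypoxia: the oxygen-sensing transcription factor HIF-1, which accumulates when oxygen is low, activates its gene. The miRNA then represses, among other targets, the iron-sulphur cluster scaffold protein ISCU of the mitochondria, which lowers respiration. Like other miRNAs it is cut from a hairpin, and either strand of the resulting duplex can be kept as the mature miRNA. In mammals the 3′ strand of miR-210 is the one usually described as active. Warm water holds less dissolved oxygen than cold water, which makes this miRNA of interest in a heat experiment. No oxygen level is given in the labels.

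The 3 names stand for 2 strands. Their sequences, as listed by the authors, are shown because the names x, y and z are not explained in the files and only the letters tell which strand each name holds. Capitals mark the seed, bases 2 to 8, which pairs with target mRNAs.
miR-210-x: aGCCACTGactaacgtacattg
miR-210-y: cTGTGCGTgtgacagcggctaa
miR-210-z: cTGTGCGTgtgacagcggct

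miR-210-y and miR-210-z have the same seed, TGTGCGT, which is the seed of the mammalian 3′ strand. The miR-210-z sequence, of 20 bases, is the start of the 22-base miR-210-y, which carries 2 more bases at its 3′ end. miR-210-x, of 22 bases, has another seed, GCCACTG. A predicted duplex of miR-210-x with miR-210-y held 15 base pairs between bases 1 to 20 of miR-210-x and bases 1 to 21 of miR-210-y, with an energy of -21.3 kcal per mol. With miR-210-z it also held 15 base pairs, at -20.6 kcal per mol. miR-210-x is thus referred to below as the 5′ strand and the other two names as the 3′ strand. Of 2730 names, 1 had the seed of miR-210-x and 2 had the seed of the 3′ strand, all of them miR-210 names. No predicted miRNA shared a miR-210 sequence, and 0 other names contained positions 3 to 18 of one.

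The libraries held 9267658 to 12778484 counts, 0.00939% to 0.0366% of them under a single miR-210 name. Values below are CPM, counts scaled to one common library size, with sizes adjusted by TMM, a scaling that sets the bulk of names equal between libraries. A miRNA is read whole, so CPM needs no correction for length. A pair of libraries stood apart in composition: heat replicate 1 and control replicate 2 had TMM factors of 1.24 and 1.25, against 0.870 to 0.916 in the other 4. They also held the most counts, 12778484 and 11894384, against 9267658 to 11117223 elsewhere. Names with a count numbered 2157 and 2077 in these libraries, against 1579 to 1701 elsewhere. Their summed hepatocyte markers, 11 of 11 of which were detected in every library, came to 254911 and 238234 CPM, against 367463 to 396707 CPM elsewhere. Their summed pancreas markers, 3 of 5 of which were detected in every library, came to 291 and 346 CPM, against 150 to 209 CPM elsewhere. Leukocyte markers summed to 32610 CPM in control replicate 2 and to 16776 to 18616 CPM in the other 5 libraries. Most of that sum in control replicate 2 was miR-146-x, at 30059 CPM. By contrast miR-150-x was lowest there, at 39.9 CPM against 83.1 to 201 CPM elsewhere. The hepatocyte sum was mostly miR-122-x, at 187010 CPM in heat replicate 1, 147764 CPM in control replicate 2 and 273772 to 321415 CPM elsewhere. Instead, miR-148-y was highest in control replicate 2, at 29686 CPM, and miR-101-y in heat replicate 1, at 15020 CPM. Endothelial markers were also low in both libraries, at 23044 CPM in heat replicate 1 and 21456 CPM in control replicate 2, against 32806.5 to 41489 CPM elsewhere. That sum was mostly miR-126-y. The less abundant miR-126-x was lowest in control replicate 3 instead, at 1629 CPM. It had 2055 CPM in heat replicate 1 and 1857 CPM in control replicate 2. Erythrocyte markers summed to 4230 to 5848 CPM in heat and 3896 to 6708 CPM in control. Muscle markers summed to 17.9 to 23.3 CPM in heat and 14.7 to 30.0 CPM in control. No marker name was at 0 in every library, and edgeR called 0 of them, as it called 0 of all 651 tested names (0%). Fold changes of the miR-210 names are given below with and without these libraries, and the part of cell makeup in any result was not tested. In bulk tissue, fewer cells of a type and less miRNA per cell cannot be told apart.

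By level the miR-210 names ranked 72 to 95 of 249 tested known names in trout liver, and none of the 3 passed the test between heat and control livers. The 5′ strand miR-210-x averaged 266 ± 13.3 CPM in heat and 307 ± 137 CPM in control (SD, n = 3 each). The long 3′ form miR-210-y averaged 115 ± 7.05 CPM in heat and 113 ± 17.6 CPM in control. The short 3′ form miR-210-z averaged 192 ± 51.0 CPM in heat and 176 ± 27.5 CPM in control. In the same test, edgeR's quasi-likelihood test over 651 names with Benjamini-Hochberg adjustment at 0.05, 0 names were called (0%), and 20 names (3.07%) had an unadjusted p under 0.05, none of them a miR-210 name. DESeq2 called 2 of 2724 names (0.0734%) and had 55 (2.02%) at an unadjusted p under 0.05, again without a miR-210 name in either.

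The 5′ strand miR-210-x was counted 3992, 2152 and 2594 times in heat replicates 1 to 3 and 3546, 2229 and 3683 times in control replicates 1 to 3. In CPM this was 252, 267 and 279 in heat replicates 1 to 3 and 400, 150 and 372 in control replicates 1 to 3. The controls lay on both sides of the heat libraries: controls 1 and 3 were above every heat library, and control 2 was below every one. The fitted log2 difference was -0.21 ± 0.37 (SE, with a 95% interval of -1.07 to 0.65, edgeR adjusted p = 0.995), which does not exclude a 2-fold lower level in heat. Without control replicate 2, all 3 heat libraries lay below both remaining controls and the log2 fold change was -0.54 (unadjusted p = 0.0303, edgeR adjusted p = 0.741). Without both heat replicate 1 and control replicate 2 it was -0.53 (unadjusted p = 0.0285, edgeR adjusted p = 0.531). Over all names, 43 of 728 had an unadjusted p under 0.05 in the first of these fits and 53 of 612 in the second. Without control replicate 1 the log2 fold change of miR-210-x was -0.014, and without control replicate 3 it was -0.0077. Each control library thus moved the value, and with any of the 3 left out it did not pass the adjusted threshold.

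The long 3′ form miR-210-y was counted 1813, 870 and 1135 times in heat replicates 1 to 3 and 1125, 1390 and 1186 times in control replicates 1 to 3, or 115, 108 and 122 CPM in heat against 127, 93.4 and 120 CPM in control. The groups overlapped, with the heat libraries inside the range of the controls. Its log2 difference was 0.019 ± 0.27 (SE, with a 95% interval of -0.60 to 0.64, edgeR adjusted p = 0.995), so a 2-fold change in either direction lay outside the interval. Without control replicate 2 the sign turned, at -0.11.

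The short 3′ form miR-210-z was counted 3920, 1186 and 1699 times in heat replicates 1 to 3 and 1415, 3094 and 1596 times in control replicates 1 to 3, or 248, 147 and 183 CPM in heat against 160, 208 and 161 CPM in control. Here heat replicate 1 and control replicate 2 were the highest of their groups, and the groups overlapped. The log2 difference was 0.13 ± 0.29 (SE, with a 95% interval of -0.55 to 0.80, edgeR adjusted p = 0.995), again with a 2-fold change outside the interval. It was -0.076 without heat replicate 1, 0.25 without control replicate 2 and 0.0059 without both.

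**Figure D1:**
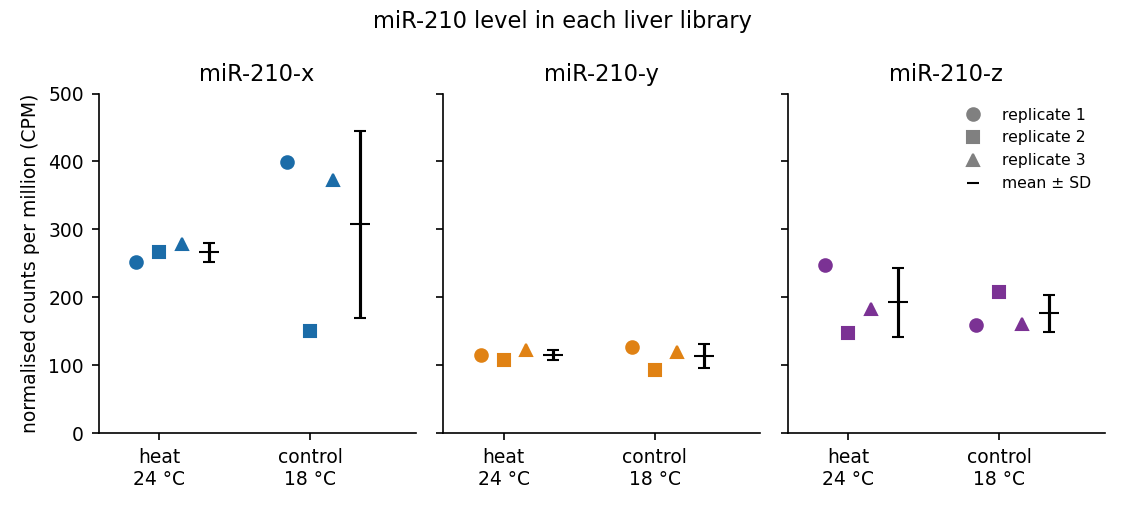
Normalised CPM (vertical axis) of the 3 miR-210 names in each liver library, heat at left and control at right in each panel, with marker shape for the replicate number and a bar for the mean ± SD (n = 3). The heat libraries of miR-210-x sit between 252 and 279 CPM, while control replicate 2 sits at 150 CPM and the other controls at 372 and 400 CPM.

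As a plain share of all counts in a library, which needs no scaling factor, miR-210-x took 0.0312%, 0.0232% and 0.0253% in heat replicates 1 to 3 and 0.0366%, 0.0187% and 0.0331% in control replicates 1 to 3. The exact binomial 95% interval for control replicate 2, 0.0180% to 0.0195%, lay below the intervals of the other 5 libraries. Such intervals describe counting error alone and treat every count as a separate molecule. PCR copies of one molecule cannot be recognised in these counts, so the intervals may be too narrow. On the log2 scale the mean share in heat minus that in control was -0.10 for miR-210-x (two-sided exact permutation p = 0.8), 0.0094 for miR-210-y (exact permutation p = 1) and 0.085 for miR-210-z (exact permutation p = 0.7). With 3 libraries against 3 this test cannot give a p under 0.1, and every p was 1 after adjustment over the 5 share measures.

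The spread within a group depended on the scaling. The SD of miR-210-x was 0.073 in heat and 0.79 in control on the log2 CPM scale, and 0.22 in heat and 0.52 in control as log2 share of counts. For miR-210-y it was 0.088 in heat and 0.23 in control as log2 CPM, but 0.30 in heat and 0.073 in control as log2 share, so the order of the groups turned. For miR-210-z it was 0.38 in heat and 0.22 in control as log2 CPM, and 0.65 in heat and 0.49 in control as log2 share. The difference in spread was not tested.

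The balance between the strands ranged widely between single libraries, and the range within control enclosed all heat libraries. miR-210-x held 41.0%, 51.1% and 47.8% of miR-210 counts in heat replicates 1 to 3 and 58.3%, 33.2% and 57.0% in control replicates 1 to 3. The mean was 46.7% ± 5.14 in heat and 49.5% ± 14.1 in control (SD, n = 3, two-sided exact permutation p = 0.8). All 3 heat libraries lay below controls 1 and 3 and above control 2. Without control replicate 2 the mean in heat was 11.0 percentage points lower (exact permutation p = 0.2), and without both heat replicate 1 and control replicate 2 it was 8.15 points lower (exact permutation p = 0.333). Each of these p-values was the smallest possible with so few libraries, so the test could not decide here. In single libraries the exact binomial 95% interval was 40.1% to 42.0% in heat replicate 1 and 32.1% to 34.3% in control replicate 2, against 57.0% to 59.5% in control replicate 1.

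Across the 6 libraries the 5′ strand always had more counts than the long 3′ form, 2.20 to 2.47 times in heat and 1.60 to 3.15 times in control. It also exceeded the short 3′ form by 1.02 to 1.81 times in heat and by 2.51 and 2.31 times in control replicates 1 and 3, while in control replicate 2 the ratio was 0.720. The short 3′ form exceeded the long one in all 6 libraries, by 1.36 to 2.16 times in heat and 1.26 to 2.23 times in control. The files do not say whether a read of the long form was also counted under the short form, so sums over both are uncertain. With miR-210-z alone as the 3′ strand, the share of miR-210-x was 2.59 points lower in heat than in control (exact permutation p = 0.8). Summed over all 3 names, miR-210 differed by -0.053 ± 0.25 in log2 (SE, with a 95% interval of -0.63 to 0.52, edgeR adjusted p = 0.999).

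The short form of the 3′ strand was most frequent in 1 library of each temperature. It held 68.4%, 57.7% and 60.0% of 3′ strand counts in heat replicates 1 to 3 and 55.7%, 69.0% and 57.4% in control replicates 1 to 3, highest in heat replicate 1 and control replicate 2. The mean was 62.0% ± 5.63 in heat and 60.7% ± 7.24 in control (SD, n = 3, two-sided exact permutation p = 0.7). This measure was chosen after the data were seen. Within single families, only 3 pairs of known names share their start in this way with at least 10 counts in every library. Pairs across families were not searched. Of these, only the miR-210 pair had its short share highest in heat replicate 1 and control replicate 2. The summed hepatocyte, endothelial and pancreas markers, total counts and number of detected names given above also set these 2 libraries apart. The part of any of these in the form of miR-210 was not tested. Over all names, the mean length of the listed sequences, weighted by counts, was 21.574, 21.573 and 21.560 bases in heat replicates 1 to 3. It was 21.609, 21.565 and 21.625 bases in control replicates 1 to 3, with the lowest value of all in heat replicate 3. Lengths of the reads themselves are not known from these counts.

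**Figure D2:**
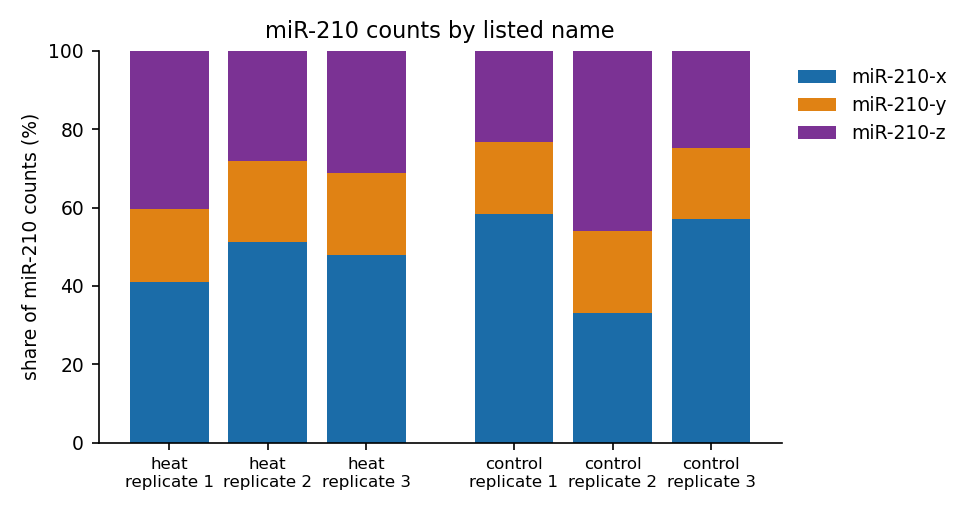
Share of all miR-210 counts (vertical axis, percent) held by miR-210-x, miR-210-y and miR-210-z in each library, heat replicates at left and control replicates at right. The share of miR-210-x is 41.0% in heat replicate 1 and 33.2% in control replicate 2, while miR-210-z is at 40.3% in heat replicate 1 and 46.1% in control replicate 2, and miR-210-y stays between 18.3% and 20.9% in all 6.

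How far the miR-210 strands swung against other families depended on the scale. For other families the x name was set against y and z names that start with other bases. Which strand these hold, and whether families share reads, was not checked. Of 42 known families with at least 100 counts on each side in every library, 1 had a wider range of its x share than miR-210. The range over the 6 libraries was 25.1 percentage points for miR-210. It was 30.2 points for that family, miR-33, a miRNA of cholesterol and lipid genes. The median range was 4.13 points. Points are compressed where a share is near 0% or 100%. As the ratio of x to the other names, miR-210 ranged 2.81-fold, beside a median of 2.40-fold, and 15 of the 42 families ranged farther. The x share was lowest in control replicate 2 in 18 of the 42 families, miR-210 among them, and highest there in 10.

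By mean log2 CPM, miR-210-x was number 72 of the 249 tested known names, miR-210-z number 85 and miR-210-y number 95. The 3 names next above miR-210-x were miR-20-x of the proliferation-linked miR-17 group, miR-29-y of a family that represses collagens, and miR-192-y of a family enriched in liver and gut. These averaged 392 ± 113, 418 ± 144 and 296 ± 39.8 CPM in heat and 539 ± 546, 356 ± 120 and 324 ± 41.8 CPM in control (SD, n = 3). The 3 next below were miR-1388-x, the vascular miR-222-x and miR-455-y, a miRNA studied in cartilage, at 279 ± 73.6, 253 ± 47.0 and 242 ± 16.9 CPM in heat and 265 ± 87.0, 281 ± 167 and 238 ± 32.3 CPM in control. miR-210-x differed from its neighbours in this order, miR-192-y and miR-1388-x, by less than its own spread in control.

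The names whose profile over the 6 libraries was nearest to that of miR-210-x shared its low value in control replicate 2. Nearness was the root-mean-square distance between log2 CPM values, each centred on its own mean. The 5 nearest of 248 known names were miR-181-y, of a family of lymphocyte regulators, at 0.12, miR-15-x, of a family that restrains the cell cycle, at 0.12, the slow-muscle miR-499-x at 0.15, miR-2478-y at 0.21 and the hepatocyte miR-122-x at 0.22. The median distance was 0.67. In control replicate 2 these 5 lay 0.73 to 0.89 below their own means on the log2 scale, beside 0.87 for miR-210-x. Because nearness was measured over that library too, this low value follows largely from the choice of names. The other strand was farther off: miR-210-y was number 20 in this order at 0.33, and miR-210-z number 115 at 0.64. Without control replicate 2, 2 of the 5 names were still among the 5 nearest and 3 among the 20 nearest.

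**Figure D3:**
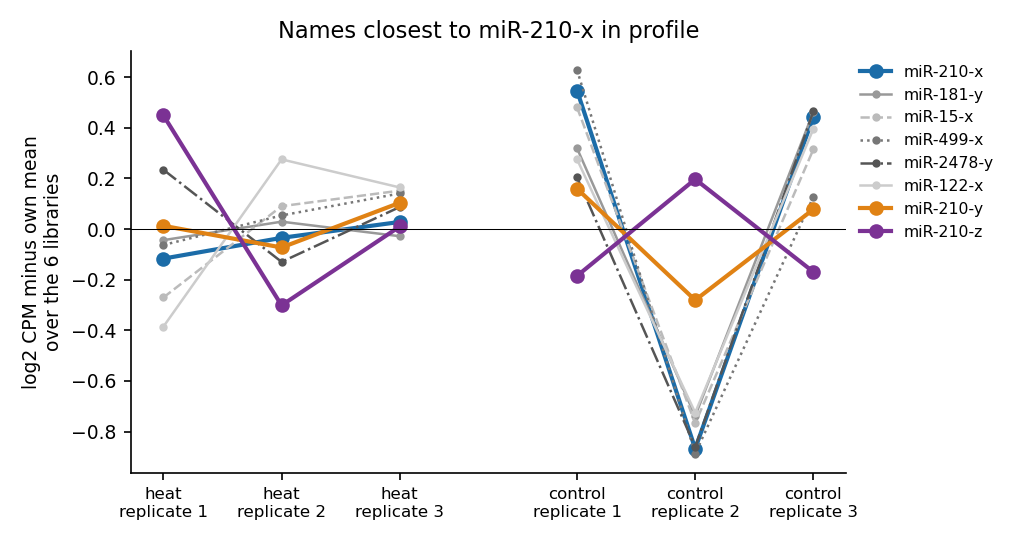
Log2 CPM of the 3 miR-210 names and of the 5 known names nearest to miR-210-x, each minus its own mean over the 6 libraries (vertical axis), for heat replicates at left and control replicates at right. The lines join values of one name and imply no order of replicates. miR-210-x and its 5 nearest names are lowest in control replicate 2, where miR-210-z is 0.20 above its mean.

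Other miRNAs tied to hypoxia did not pass the test either, as was so for every tested name. The first list held families described as raised by low oxygen in mammalian cells (miR-21, miR-23, miR-24, miR-26, miR-27, miR-103, miR-107, miR-181) or in zebrafish (the miR-462 and miR-731 cluster). Of its 20 names 19 were tested, and edgeR called 0 higher and 0 lower, beside 0 of all 651 tested names (0%). With 0 calls over all names, the calls cannot set the list apart. Only miR-462-y, 1 of the 19, had an unadjusted p under 0.05 there, beside 20 of 651 names (3.07%). DESeq2 also called 0 names of the list, beside 2 of 2724 over all names (0.0734%). There were 13 below a fold of 1 and 6 above, with a median log2 fold change of -0.13, beside 64.7% below 1 and a median of -0.12 over all 249 tested known names. Without control replicate 2, 9 of 19 were below 1 with a median of 0.030, beside 55.5% and -0.054 over known names. Without heat replicate 1 as well, 11 of 19 were below 1 with a median of -0.063, beside 65.8% and -0.16 over known names. miR-103-y and miR-107-y are listed with one and the same sequence.

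The miR-462 and miR-731 cluster, found in fish, gave the lowest p-values of that list. miR-462-x had 2270, 2352 and 2434 CPM in heat replicates 1 to 3 and 5028, 2615 and 3174 CPM in control replicates 1 to 3. The heat libraries lay wholly below the controls, as they did for 20 of 651 names (3.07%), with a log2 fold change of -0.62 ± 0.28 (SE, edgeR adjusted p = 0.995), or -0.33 without control replicate 1. For miR-462-x the value was -0.80 without control replicate 2 (edgeR adjusted p = 0.657). Leaving out heat replicate 1 as well gave -0.81 (edgeR adjusted p = 0.531). The less abundant partner strand miR-462-y had 6.44, 3.23 and 3.55 CPM in heat and 9.13, 31.3 and 4.24 CPM in control. That gave a log2 fold change of -1.75 ± 0.74 (SE, edgeR adjusted p = 0.948), or -0.60 without control replicate 2. miR-731-x averaged 383 ± 55.4 CPM in heat and 502 ± 74.5 CPM in control (SD, n = 3). The most abundant name of the list, miR-26-x, averaged 65664 ± 13090 CPM in heat and 52438 ± 26365 CPM in control. Its fitted log2 difference was 0.32 ± 0.42 (SE) and -0.043 without control replicate 2.

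The second list held families described in mammals as repressing the mRNA of the alpha subunit of HIF-1 (miR-17, miR-18, miR-20, miR-138, miR-155, miR-199, miR-429). Of its 14 names 10 were tested, and edgeR called 0 of them higher or lower, again beside 0 of all 651 tested names (0%). DESeq2 called 0 too, beside 2 of 2724 names (0.0734%). With edgeR 0 of the 10 had an unadjusted p under 0.05, beside 20 of 651 names (3.07%). All 10 fitted folds were below 1, with a median log2 fold change of -0.38, beside 64.7% below 1 and a median of -0.12 over known names. Without control replicate 2, 7 of 10 were below 1 with a median of -0.093, beside the 55.5% and -0.054 of known names. Without heat replicate 1 as well, 7 of 10 were below 1 with a median of -0.19, beside the 65.8% and -0.16 of known names. The lowest p-values belonged to miR-138-x, at 1.52 ± 0.914 CPM in heat and 3.09 ± 1.65 CPM in control, to the immune-cell miR-155-x, at 14.5 ± 5.18 CPM in heat and 22.4 ± 10.8 CPM in control, and to the stromal miR-199-y, at 11636 ± 365 CPM in heat and 14850 ± 4651 CPM in control (SD, n = 3). Its partner strand miR-199-x, the most abundant of the list, averaged 87242 ± 26491 CPM in heat and 88556 ± 42540 CPM in control, with 39488 CPM in control replicate 2. Without control replicate 2 the log2 fold change moved from -0.996 to -0.475 for miR-138-x and from -0.63 to -0.17 for miR-155-x. For miR-199-y it moved from -0.35 to -0.089, and for miR-199-x the other way, from -0.022 to -0.37.

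**Figure D4:**
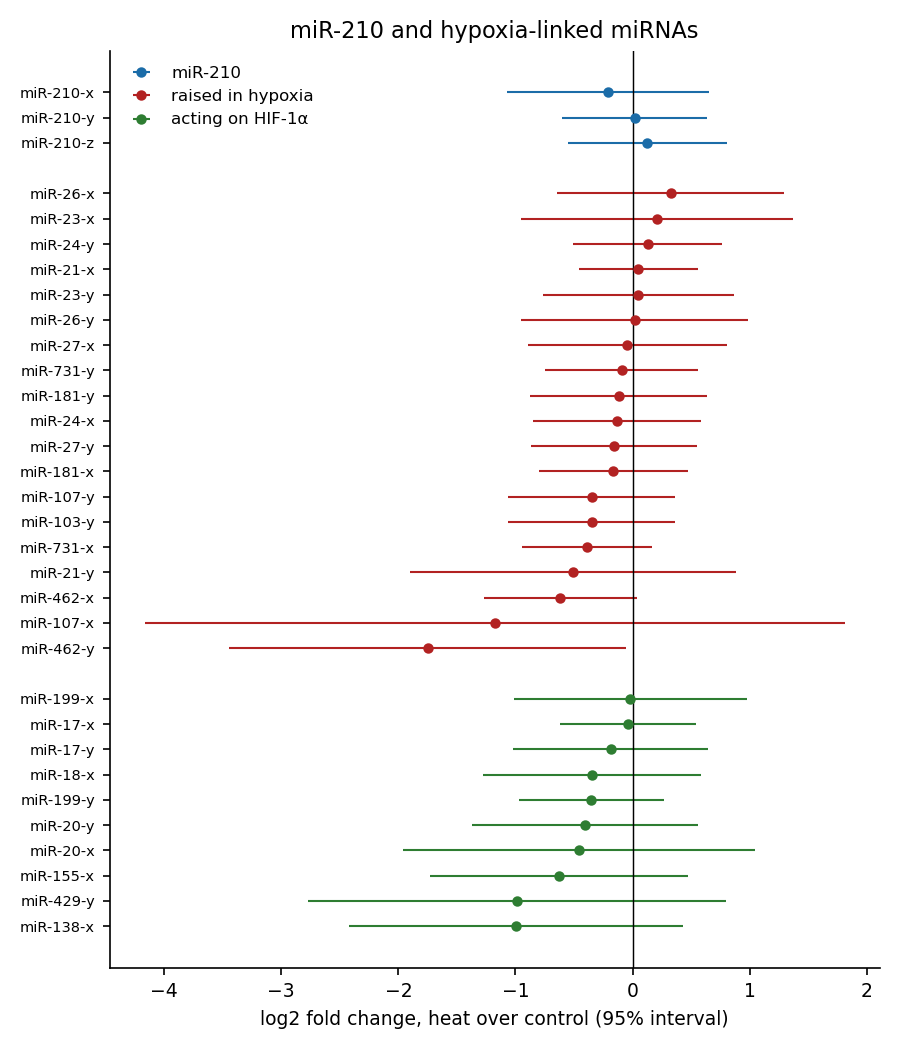
Fitted log2 fold change of heat over control (horizontal axis) with its 95% interval for the 3 miR-210 names at top, the 19 tested names of families raised in hypoxia in the middle and the 10 tested names of families acting on HIF-1 alpha at the bottom. The intervals of the miR-210 names all span 0, and of the other names the interval of miR-462-y alone does not.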

How the data were processed

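Per the labels, 3 heat and 3 control liver libraries were profiled. The deposited files list for each miRNA name a sequence and a whole-number count, used as deposited by the authors. The deposited scaled values were not used. Aligner, miRNA database, genome build and library preparation were not given in the sources used here, where protocol text describes retina and rRNA-depleted RNA. No genome was used, so positions are not given. The main test did not treat libraries of equal replicate number as pairs, and the correlations given below cannot tell whether they were.

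The test was run with edgeR 4.0.16 in R 4.3.3, after filterByExpr at a minimum count of 10 (651 of 2730 names kept), with TMM and the robust quasi-likelihood test, adjusted over all tested names. Standard errors came from the fold change and its F statistic. The CPM values use TMM-adjusted sizes, and log2 CPM adds a prior count of 2. Shares were compared by exact permutation in SciPy 1.17.1. Duplexes were predicted with ViennaRNA 2.7.2 under default RNA settings. The fit was also run on counts simulated from its own means and dispersions. These held no shift particular to heat replicate 1 and control replicate 2, so that run cannot tell how the fit handles it.

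Members, lists and tests were chosen with earlier results of these data known. Named were all miR-210 names, names sharing their seed or sequence, per hypoxia list the 3 lowest-p names and the most abundant one, the 5 names nearest in profile, and 3 level neighbours on each side. The families miR-33, miR-103 and miR-107, and the ratio scale for strands, were singled out after their values were seen. So were the single marker names of leukocytes, hepatocytes and endothelial cells. Alternatives were DESeq2 1.42.0, other scalings and filters, left-out libraries, a replicate block, each sequence counted once, and limma 3.58.1 quality weights. For the share measures, leaving out heat replicate 1 and control replicate 2 together was not planned beforehand. Neither was the use of miR-210-z alone as the 3′ strand.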

Additional observations from a re-analysis of the deposited data

How the results depend on the processing

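No miR-210 name passed the adjusted threshold under any alternative run, and 0 names of the hypoxia lists were called in any. Without a count filter miR-462-y came close to the threshold, with an edgeR adjusted p of 0.0614. Over all names, the 0 calls of edgeR became 2 with the DESeq2 Wald test, 2 with DESeq2 after the count filter (chosen after the data were seen) and 23 without a count filter; the cause was not tested. Over the libraries left out in turn, the log2 fold change ran from -0.54 to -0.0077 for miR-210-x, -0.11 to 0.10 for miR-210-y, -0.076 to 0.31 for miR-210-z, -0.37 to 0.23 for miR-199-x and -0.043 to 0.58 for miR-26-x, and calls stayed at 0. In the same way the log2 share ran from -0.40 to 0.083 (miR-210-x), -0.15 to 0.15 (miR-210-y) and -0.27 to 0.37 (miR-210-z), the arm share from -11.0 to 1.57 points and the short 3′ share from -1.88 to 5.47 points. Signs also turned for miR-210-y with a minimum count of 20 (-0.0086), quality weights (-0.050) and heat replicate 1 and control replicate 2 both left out (-0.13, and -0.13 as log2 share), for the log2 share of miR-210-x without the 10 most abundant names (0.011), and for miR-199-x without a count filter (0.018) and with the replicate block (0.064). Deviations of same-numbered libraries correlated at -0.018, -0.32 and 0.12, with 2 of 6 libraries closest to their own number. The replicate block gave log2 fold changes of -0.090 (miR-210-x), 0.029 (miR-210-y) and 0.11 (miR-210-z), and 0 calls. The number of libraries limits precision: the 95% interval of miR-210-x ran from -1.07 to 0.65 in log2.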
